A study of Homo sapiens with 2 samples.

Results

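Several human miRNAs are encoded by more than 1 gene copy, and the copies often give the same mature strand on one arm of the hairpin and different strands on the other. The strand that differs carries the number of the copy in its name, as in miR-24-1-5p and miR-24-2-5p, whereas the strand shared by the copies, miR-24-3p, has no number. The numbered strands of U87MG cells, an established human glioblastoma cell line grown without treatment, are described here. They were found by name in the table of miRNA read counts: a let-7 or miR stem, a single-digit copy number, and 5p or 3p, with the stems miR-19b and miR-92a left out. This rule took 35 of the 1224 listed mature miRNAs, from 23 stems; 25 were 3p strands and 10 were 5p strands. The data were 1 small RNA library with 11785001 miRNA reads and 1 mRNA library with 21445 listed genes, each of untreated U87MG cells, which the labels give as grown in MEM medium with serum and antibiotics. There was no replicate and no control, so every value describes this line and none could be set against a spread between samples. The cells were read in bulk, so a low count does not show whether few cells or little RNA per cell gave it. Of 10 glial and glioma markers in the mRNA library, 5 reached 1 FPKM (fragments scaled by gene length and library size): VIM, CD44, GJA1, SLC1A3 and NES. GFAP, the filament protein of astrocytes, was at 0.331 FPKM, and S100B, AQP4, SOX2 and OLIG2 had no row. Among all 21445 listed genes, 13859 reached 1 FPKM.

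A miRNA gene is transcribed as a long primary RNA, from which DROSHA cuts a hairpin and DICER1 cuts a short duplex. An Argonaute protein keeps one strand of the duplex, the guide, and the other strand, the passenger, is mostly degraded. The guide finds its targets mainly through its seed, bases 2 to 8 from the 5′ end. Because identical guides from different genes cannot be told apart, the numbered strand is the part of each duplex that keeps a mark of its gene. Its reads follow from transcription, processing and survival of the strand together, and these steps were not measured separately.

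The numbered strands of a stem are not always alike in their seed. The 6 pairs below, chosen to show stems with and without a shared seed, hold 5 of the 6 strands with the most reads, as listed by the authors in DNA letters, 5′ to 3′, with the seed in capitals.
miR-125b-1-3p: aCGGGTTAggctcttgggagct
miR-125b-2-3p: tCACAAGTcaggctcttgggac
miR-16-1-3p: cCAGTATTaactgtgctgctga
miR-16-2-3p: cCAATATTactgtgctgcttta
miR-138-1-3p: gCTACTTCacaacaccagggcc
miR-138-2-3p: gCTATTTCacgacaccagggtt
miR-29b-1-5p: gCTGGTTTcatatggtggtttaga
miR-29b-2-5p: cTGGTTTCacatggtggcttag
miR-24-1-5p: tGCCTACTgagctgatatcagt
miR-24-2-5p: tGCCTACTgagctgaaacacag
miR-30c-1-3p: cTGGGAGAgggttgtttactcc
miR-30c-2-3p: cTGGGAGAaggctgtttactct

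In 12 stems both copy 1 and copy 2 were listed, which made 24 strands. The copies had the same seed in 5 of these stems (miR-24, miR-26a, miR-30c, miR-129 and miR-1185) and different seeds in the other 7 (miR-125b, miR-16, miR-138, miR-29b, miR-219a, miR-450a and let-7f). Counting from 1 at the 5′ end, with the base of copy 1 first, the seeds differ by C5T in miR-138, by G4A in miR-16, by A7G in miR-450a and by A8G in let-7f. The miR-29b strands start at different bases of a similar sequence, which moves the seed. The copies of a stem differed by 1 to 7 edits (substitutions, insertions or deletions). miR-129 and miR-1185 had the least, 1 substitution each, T20C in both. How the authors assigned reads that fit more than 1 name is not given in the sources used here, and the counts of such close pairs depend on it.

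RefSeq (GRCh38.p14) names 34 of the 35 strands, with an identical sequence for all 34; let-7f-2-3p was found inside the MIRLET7F2 hairpin instead. The sequences of 29 strands occurred in 1 hairpin of the RefSeq table, so that the number in the name points to a single gene among those it holds. For 4 strands, miR-125b-2-3p, miR-181b-2-3p, miR-450a-2-3p and miR-7-1-3p, no hairpin was found there, so this was not checked. miR-550a-3-5p occurred in 3 hairpins and miR-550b-2-5p in 2, and their numbers do not mark a copy. miR-550a-3-5p is also contained in miR-550a-5p, the only such nesting among the strands. No strand had the same full sequence as another listed miRNA. None shared 16 bases in a row with any of the 10487 entries of the piRNA table of the same library.

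The 35 strands were a small part of the library. Together they had 24875 reads, or 0.211% of the miRNA reads (exact 95% Clopper-Pearson interval 0.208 to 0.214%, which covers counting error only). Of the 35, 28 (80%) had at least 10 reads, beside 51.6% of all listed miRNAs. The median was 69 reads, against 10 for all miRNAs. The counts ran from 1 read to 13832, and the 6 strands with at least 1000 reads held 87.9% of all reads of the 35. These 6 were miR-125b-1-3p with 13832 reads (55.6% of the total), miR-24-2-5p with 2764, miR-16-2-3p with 1678, miR-125b-2-3p with 1340, miR-30c-2-3p with 1239 and miR-181a-2-3p with 1017. miR-138-1-3p (736), miR-29b-1-5p (451), let-7f-1-3p (282) and let-7f-2-3p (227) completed the first 10. The strands with fewer than 10 reads were 7: miR-29b-2-5p, miR-218-1-3p, miR-509-3-5p, miR-103a-2-5p, miR-376a-2-5p, miR-138-2-3p and miR-219a-2-3p.

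One copy gave most of the numbered reads in most stems, and it was as often copy 2 as copy 1. In 7 of the 12 stems with both copies listed, 1 copy had at least 90% of the reads of the numbered arm. Copy 1 led in 6 stems and copy 2 in 6. The leading copy had between 1.24 and 736 times the reads of the other, with a median of 10.6. In all 12 stems the 95% interval of the leading copy's share lay above 50%, the lowest being 51.0% for let-7f.

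**Figure D1:**
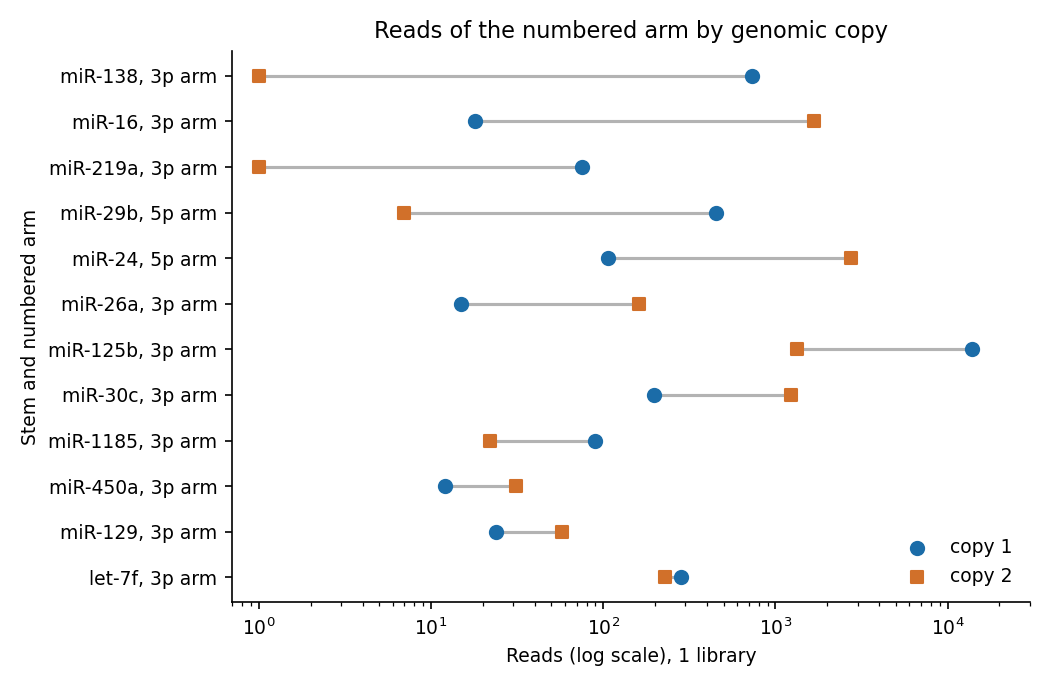
Reads of the numbered arm (log axis) for the 12 stems with both copies listed, circles for copy 1 and squares for copy 2, ordered by the ratio between them. The copies lie 736-fold apart for miR-138 at the top and 1.24-fold apart for let-7f at the bottom.

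The miR-138 and miR-219a stems had a second copy with 1 read. miR-138, a brain-enriched miRNA, had 736 reads of miR-138-1-3p, from chromosome 3 (chr3:44114274-44114295, plus strand), and 1 read of miR-138-2-3p, from chromosome 16. Copy 1 thus held 99.9% of the numbered reads (99.2 to 100%). miR-219a, known for its role in the maturation of oligodendrocytes, had 75 reads of miR-219a-1-3p, from chromosome 6 (chr6:33207896-33207917, plus strand), and 1 of miR-219a-2-3p, from chromosome 9, a share of 98.7% (92.9 to 100%). The single reads leave the ratios wide: the intervals run from 132 to 29109 for miR-138 and from 13.1 to 3001 for miR-219a.

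miR-16, miR-29b and miR-24 each had a leading copy above 95%. miR-16, a miRNA that restrains cyclins, had 1678 reads of miR-16-2-3p (chr3:160404797-160404818, plus strand) and 18 of miR-16-1-3p (chr13:50048985-50049006, minus strand), so that copy 2 held 98.9% (98.3 to 99.4%). miR-29b, which targets collagen mRNAs, had 451 reads of miR-29b-1-5p (chr7:130877507-130877530, minus strand) and 7 of miR-29b-2-5p on chromosome 1, and copy 1 held 98.5% (96.9 to 99.4%). For miR-24, 2764 reads of miR-24-2-5p (chr19:13836326-13836347, minus strand) stood against 106 of miR-24-1-5p (chr9:95086027-95086048, plus strand), and copy 2 held 96.3% (95.6 to 97.0%). In these 3 stems the copies were 93.2, 64.4 and 26.1 times apart.

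miR-26a and miR-125b lay close to 90%. miR-26a-2-3p had 162 reads and miR-26a-1-3p 15, a share of 91.5% for copy 2 (86.4 to 95.2%), whose gene lies on chromosome 12 inside CTDSP2. miR-125b-1-3p had 13832 reads (chr11:122099769-122099790, minus strand) and miR-125b-2-3p 1340 (chr21:16590290-16590311, plus strand), a share of 91.2% for copy 1 (90.7 to 91.6%). The lesser copy of miR-125b still had more reads than every other strand of the 35 but miR-24-2-5p and miR-16-2-3p, apart from its own leading copy.

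The other 5 stems were more even. miR-30c-2-3p, from chromosome 6, had 1239 reads and miR-30c-1-3p, from chromosome 1, 198, or 86.2% for copy 2 (84.3 to 88.0%). The miR-1185 copies, neighbours in the imprinted cluster of chromosome 14, had 90 and 22 reads, 80.4% for copy 1 (71.8 to 87.3%). miR-450a, whose copies lie side by side on the X chromosome, had 31 reads of miR-450a-2-3p and 12 of miR-450a-1-3p, 72.1% for copy 2 (56.3 to 84.7%). miR-129, another brain miRNA, had 58 reads of miR-129-2-3p and 24 of miR-129-1-3p, 70.7% for copy 2 (59.6 to 80.3%). let-7f was nearest to balance, with 282 reads of let-7f-1-3p from chromosome 9 and 227 of let-7f-2-3p from the X chromosome, 55.4% for copy 1 (51.0 to 59.8%). The let-7f strands differ at the last base of the seed, by which let-7f-2-3p has the seed of both miR-1185 strands, although the remaining bases differ:
let-7f-1-3p: cTATACAAtctattgccttccc
let-7f-2-3p: cTATACAGtctactgtctttcc
miR-1185-1-3p: aTATACAGggggagactcttat
miR-1185-2-3p: aTATACAGggggagactctcat

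Another 11 stems had only 1 numbered strand listed, and in some of them the strand of another copy goes by a name without a number. let-7a-2-3p had 116 reads, while let-7a-3p, which lies in the RefSeq hairpins MIRLET7A1 and MIRLET7A3, had 2926. The strand of copies 1 and 3 thus had 96.2% of the 3p reads of let-7a (95.4 to 96.8%). miR-181a-2-3p had 1017 reads and miR-181a-3p, from MIR181A1, 4457, which gave copy 1 81.4% (80.4 to 82.4%). In the same clusters miR-181b-2-3p had 12 reads and miR-181b-3p, from MIR181B1, 276, or 95.8% for copy 1 (92.8 to 97.8%). Copy 1 therefore led at both miR-181 stems, 4.38-fold and 23-fold. The lncRNA that hosts copy 1, MIR181A1HG, was listed at 6.31 FPKM and that of copy 2, MIR181A2HG, at 0.787 FPKM.

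miR-7-1-3p had 224 reads, and its host HNRNPK, an RNA-binding protein, was listed at 221 FPKM. miR-7-2-3p, which RefSeq names, had no row. The same was true of miR-218-2-3p, miR-128-2-5p and miR-103a-1-5p, whose counterparts miR-218-1-3p, miR-128-1-5p and miR-103a-2-5p had 6, 69 and 3 reads. SLIT2, an axon guidance gene that hosts miR-218-1, was at 8.52 FPKM and SLIT3, the host of miR-218-2, at 0.398. R3HDM1, the host of miR-128-1, was at 12.0 FPKM, and ARPP21, the host of miR-128-2, had no row. For miR-103a the host of the copy with no row was the higher one: PANK3 was at 22.2 FPKM and PANK2, the host of copy 2, at 14.0; both are pantothenate kinases of coenzyme A synthesis. A count of 3 reads for miR-103a-2-5p allows no comparison of its copies.

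Most numbered strands had fewer reads than the strand from the other arm, but not all of them were the passenger. The other arm was listed for 34 of the 35 strands, and 30 of the 34 had fewer reads than it. The median over the 34 was 3.10% of the reads of the other arm, and 14 were under 1%. Of the 28 strands with at least 10 reads, 20 (71.4%) were under 10%, beside 56.9% of the names in the library that list both arms with at least 10 reads on the lower one and 100 on both together. The strands were not held to those limits on both arms, so the shares are not strictly alike. The other arm collects the reads of every copy, which lowers the value of a single copy. With the copies of a stem summed, the lower arm was under 10% of the higher arm in 7 of 11 stems with 2 listed copies and at least 100 reads, or 63.6%, beside 65.1% of all names with both arms and that many reads. Over all 18 numbered stems with at least 100 reads, those with 1 listed copy included, it was under 10% in 14, or 77.8%. In stems with 1 listed copy, strands of other copies whose names have no number were not added to this sum. miR-181a is among the 14 with the 1017 reads of miR-181a-2-3p alone. Its unnumbered strand miR-181a-3p had 4457 reads beside 18686 of miR-181a-5p, so with that strand added miR-181a would not be under 10%.

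**Figure D2:**
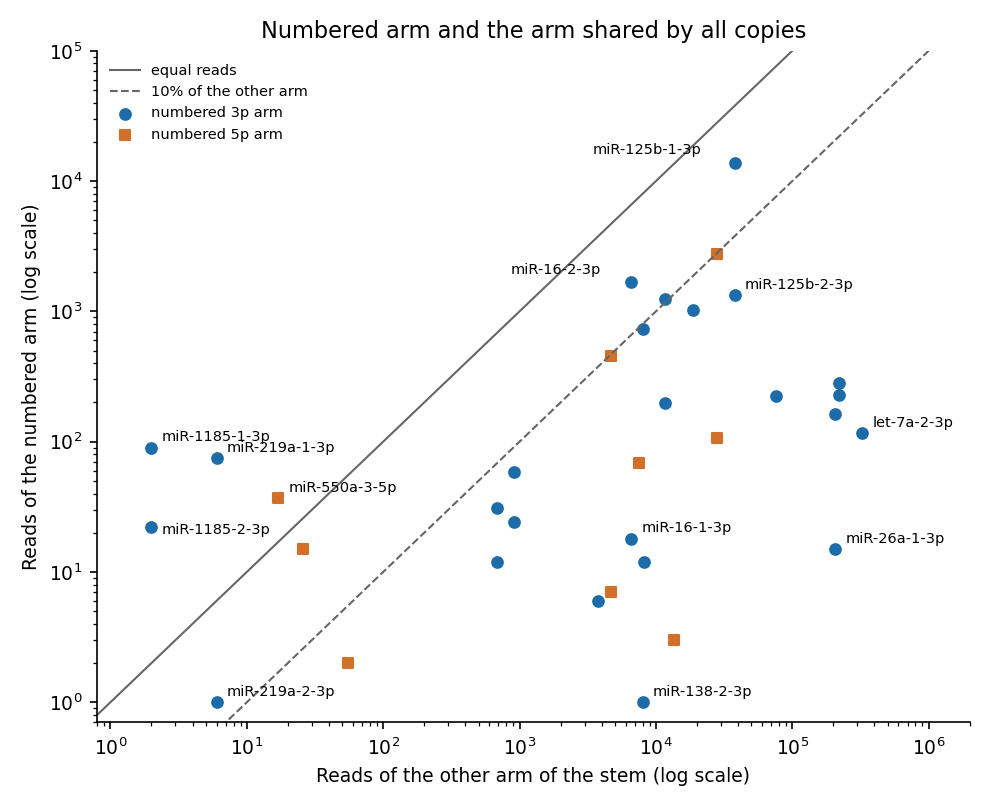
Reads of each numbered strand against reads of the other arm of its stem, both on log axes, for the 34 strands whose other arm is listed; circles are 3p and squares 5p strands. The 4 points above the solid line of equal reads are miR-1185-1-3p, miR-1185-2-3p, miR-219a-1-3p and miR-550a-3-5p, and the dashed line marks 10%.

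The strands of miR-26a, let-7a, let-7f and miR-7, stems with very abundant guides, were all under 1%. miR-26a-1-3p had 15 reads against 206110 of miR-26a-5p, or 13741 reads of the guide for each of its own, and let-7a-2-3p had 116 against 325277 of let-7a-5p. let-7f-1-3p and let-7f-2-3p stood at 0.129% and 0.104% of let-7f-5p with its 218267 reads. miR-7-1-3p was at 0.297% of miR-7-5p. Shares as low also occurred under less abundant guides, with miR-138-2-3p at 0.0125% of the 7983 reads of miR-138-5p and miR-103a-2-5p at 0.0219% of the 13669 reads of miR-103a-3p.

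At the other end stood miR-125b-1-3p and miR-16-2-3p. miR-125b-1-3p had 36.6% of the 37783 reads of miR-125b-5p, and both numbered strands together made up 28.7% of all miR-125b reads (28.3 to 29.0%). miR-16-2-3p had 25.4% of the 6611 reads of miR-16-5p, against 0.272% for miR-16-1-3p. miR-30c-2-3p (10.6%) was the only other strand with at least 100 reads above 10%, and miR-24-2-5p (9.85%), miR-29b-1-5p (9.70%) and miR-138-1-3p (9.22%) lay just below.

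In 4 cases the numbered strand was the higher arm. miR-1185-1-3p with 90 reads and miR-1185-2-3p with 22 stood against 2 reads of miR-1185-5p. miR-219a-1-3p with 75 reads stood against 6 of miR-219a-5p, so that the 3p arm had 92.7% of the miR-219a reads (84.8 to 97.3%). miR-550a-3-5p with 37 reads stood against 17 of miR-550a-3p. All 4 belong to stems with few reads, and calling these strands passengers goes against their counts here.

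The strands also differed from their other arms at the first base. Argonaute proteins are known to favour guides that start with U, written T in the table. Of the 35 numbered strands 4 started with T, 14 with A, 13 with C and 4 with G. Among the 22 other arms listed, 15 started with T, as did 38.2% of all listed miRNAs. The 4 were miR-24-1-5p, miR-24-2-5p, miR-125b-2-3p and miR-509-3-5p. In length the strands were uniform, with 29 of 35 at 22 bases and a range from 20 to 24.

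Many copies sit in a cluster with other miRNAs that come from the same primary transcript, and these neighbours give a second reading of the same locus. Neighbours specific to each copy were listed for 6 stems. Summed over both arms, they were higher on the side of the leading copy in 5 of the 6. For miR-16, miR-15b of the leading copy had 2601 reads and miR-15a of the other copy 204, or 12.8 times, where the miR-16 strands stood 93.2-fold apart. Only the 5p arm of miR-15a was listed, and on that arm miR-15b had 1779 reads, 8.72 times those of miR-15a. For miR-29b, miR-29a had 83165 reads and miR-29c 246. This 338-fold gap lay in the 3p strands (82988 and 135 reads), which differ by 1 edit; the 5p strands had 177 and 111 reads, 1.59-fold apart. For miR-125b, miR-100 had 430396 reads, and miR-99a and let-7c had 67108 together, 6.41-fold apart, with let-7a-2 of the leading side not counted. For miR-30c, miR-30a had 45437 reads and miR-30e 21849, 2.08-fold apart, and on each arm their strands differ by 1 edit. For let-7f, let-7d had 6861 reads and miR-98 2682, 2.56-fold apart, more than the let-7f strands themselves.

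miR-24 was the exception. miR-23a and miR-27a, on the side of the leading miR-24-2, had 143048 reads, and miR-23b and miR-27b, on the side of miR-24-1, had 150720, a ratio of 0.949. When only the arm on the same side of the hairpin as the numbered strand was read, the miR-24 neighbours stood at 26902 reads for copy 2 and 2369 for copy 1, 11.4-fold apart and on the side of the leading strand. Under that reading 5 stems had values for both copies, since miR-15a-3p had no row, and the neighbours were higher on the side of the leading copy in 4. miR-125b was the exception in this count, with 79 reads of miR-100-3p against 118 of miR-99a-3p and let-7c-3p together. The sum sets 1 neighbour against 2, as it leaves out let-7a-2-3p of the leading side. In matched pairs the cluster of miR-125b-1 was the higher. miR-100-3p had 79 reads and miR-99a-3p 45, and let-7a-2-3p had 116 and let-7c-3p 73. On the same arm the miR-30c neighbours were nearly level, with 4759 reads of miR-30a-3p and 4681 of miR-30e-3p. Their ratio was 1.02 (0.976 to 1.06), with an interval that includes 1. These strands differ by 1 edit, so their counts depend on the unknown rule for shared reads. For let-7f the gap widened, with 1462 reads of let-7d-3p against 14 of miR-98-3p, 104-fold apart, beside 1.24-fold for the let-7f strands.

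**Figure D3:**
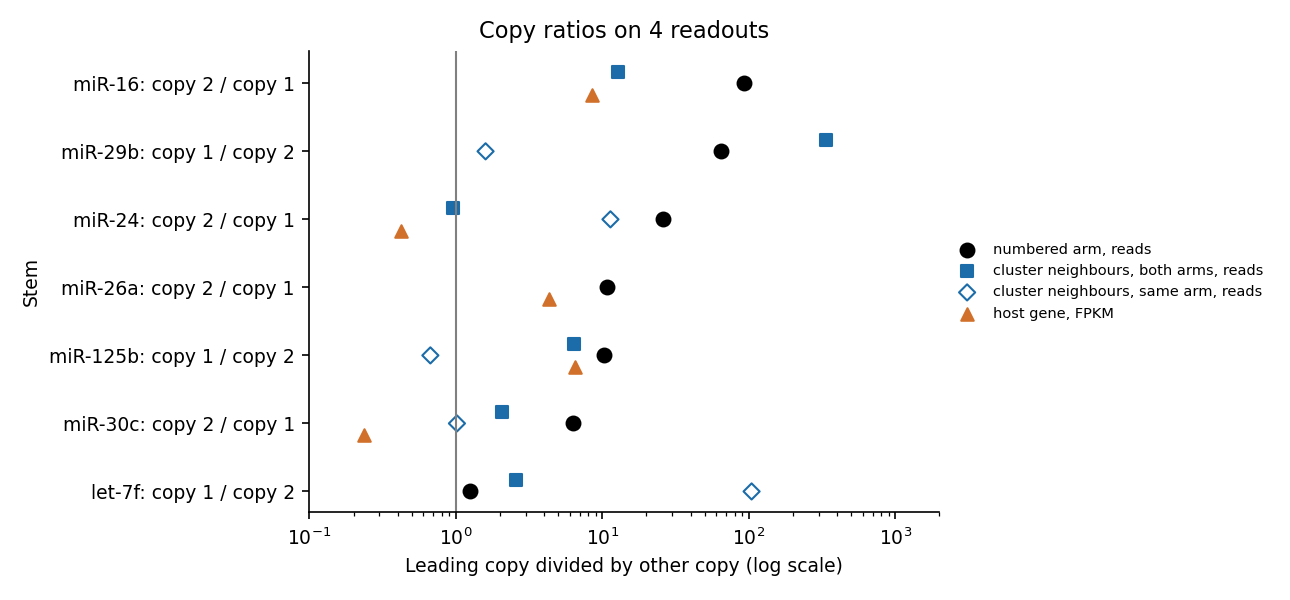
Leading copy divided by the other copy (log axis) for the 7 stems with neighbours or host genes for both copies: circles are reads of the numbered arm, filled squares reads of the neighbours over both arms, open diamonds reads of the neighbours on the same arm, triangles FPKM of the host genes. The miR-24 square and triangle (0.949 and 0.424), the miR-30c triangle (0.237) and the miR-125b diamond (0.669) lie left of 1. The miR-125b square and diamond leave out let-7a-2 of the leading side. The miR-30c triangle uses LINC00472, whose bounds do not hold the miR-30c-2 strand. miR-16 has no diamond because miR-15a-3p has no row.

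The genes that host the copies gave a further reading, from the mRNA library. Host genes were listed for both copies of 5 stems, and the host of the leading copy had the higher FPKM in 3 of them. The 5 include miR-30c, whose copy 2 lies outside the bounds of its listed host. SMC4, a condensin subunit that hosts miR-16-2, was at 62.1 FPKM and the lncRNA DLEU2, the host of miR-16-1, at 7.34, 8.47-fold apart. MIR100HG, the lncRNA of miR-125b-1, was at 23.7 FPKM and MIR99AHG, that of miR-125b-2, at 3.68, 6.46-fold apart. CTDSP2, a small phosphatase that acts on RNA polymerase II, was at 36.7 FPKM, and its relative CTDSPL was at 8.46, 4.34-fold apart. They host miR-26a-2 and miR-26a-1, whose 3p strands share a seed:
miR-26a-1-3p: cCTATTCTtggttacttgcacg
miR-26a-2-3p: cCTATTCTtgattacttgtttc

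The hosts listed for miR-24 and miR-30c went the other way. AOPEP, an aminopeptidase gene around miR-24-1, was at 38.3 FPKM, and MIR23AHG, the RNA of the miR-24-2 cluster, at 16.2. The authors' table lists that RNA under the symbol MIR24-2, as a long intergenic RNA, and it was matched to MIR23AHG by its Ensembl identifier. The hosts were in this order although miR-24-2-5p had 26.1 times the reads of miR-24-1-5p. NFYC, a subunit of the transcription factor NF-Y that hosts miR-30c-1, was at 13.0 FPKM and LINC00472, listed for miR-30c-2, at 3.07. The miR-30c-2 strand does not lie inside the RefSeq bounds of LINC00472, unlike the 18 other strands with a listed host, all of which lie inside theirs. The strand of each host and the promoter used for each miRNA were not checked.

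The miR-24 hairpins show what the copies share. Both hold the full sequence of miR-24-3p near the 3′ end, and the 5p strands, in capitals, are the same up to base 15. The hairpins are from RefSeq (GRCh38.p14), in RNA letters.
MIR24-1 (chr9:95086021-95086088, plus strand): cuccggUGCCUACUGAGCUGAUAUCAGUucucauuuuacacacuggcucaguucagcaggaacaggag
MIR24-2 (chr19:13836287-13836359, minus strand): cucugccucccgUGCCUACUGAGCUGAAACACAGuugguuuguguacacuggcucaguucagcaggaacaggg

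Within 1 transcript, the lesser strands of different hairpins were not recovered at 1 level. MIR100HG gives miR-100, let-7a-2 and miR-125b-1, and their 3p strands had 79, 116 and 13832 reads, so that miR-125b-1-3p had 175 times the reads of miR-100-3p and 119 times those of let-7a-2-3p. MIR99AHG gives the related set miR-99a, let-7c and miR-125b-2, with 45, 73 and 1340 reads on the 3p arm, and miR-125b-2-3p had 29.8 and 18.4 times the reads of the other two. Between the clusters, the 3p strands stood 1.76-fold apart for miR-100 and miR-99a (1.20 to 2.59), 1.59-fold for let-7a-2 and let-7c (1.18 to 2.16) and 10.3-fold for the miR-125b copies (9.76 to 10.9). The guides miR-100-5p and miR-99a-5p, with 430317 and 57734 reads, stood 7.45-fold apart, but differ by 1 edit. All 4 pairs were higher in the cluster of miR-125b-1, by very different factors.

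The miR-24 clusters differed more from hairpin to hairpin. On the 5p arm, miR-23a had 328 reads and miR-23b 289, a ratio of 1.13 (0.966 to 1.33) whose interval includes 1. miR-27a-5p had 26574 reads and miR-27b-5p 2080, 12.8-fold apart (12.2 to 13.4), and the miR-24 strands were 26.1-fold apart (21.5 to 32.0). On the 3p arm, miR-23a had 61459 reads and miR-23b 22467, 2.74-fold higher for the cluster of miR-24-2, but miR-27a had 54687 and miR-27b 125884, a ratio of 0.434. Each of these 3p pairs differs by 1 edit. The copy that appears higher in this locus pair therefore depended on the strand read.

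**Figure D4:**
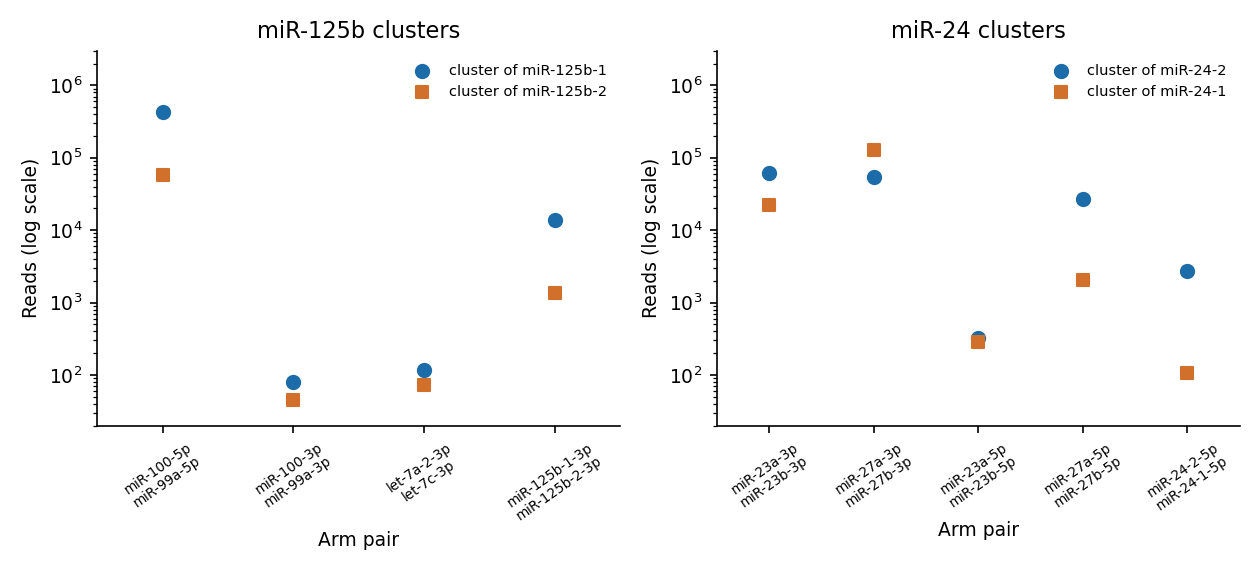
Reads (log axis) of matched strands in the clusters of miR-125b-1 and miR-125b-2 (left) and of miR-24-2 and miR-24-1 (right); each column is 1 pair of related strands, circles for the first-named cluster. The circles are above the squares in all 4 columns at left, by 1.59-fold to 10.3-fold, and below the square for miR-27a-3p and miR-27b-3p at right.

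All 12 genes of a list for miRNA processing and strand loading were at 1 FPKM or more. Their median was 14.7 FPKM, against 2.96 for all 21445 listed genes, of which 13859 reached 1 FPKM. The Argonaute genes, whose proteins hold the guide, were at 7.29 (AGO1), 12.6 (AGO2), 14.5 (AGO3) and 4.70 FPKM (AGO4). TSN and TSNAX, which form the nuclease known to clear passenger fragments, were at 27.7 and 23.0 FPKM.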

How the data were processed

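Small RNA and mRNA of untreated U87MG cells were each measured in 1 library. The miRNA and piRNA values are raw read counts deposited by the authors, per the file headers, and the mRNA values are FPKM deposited by the authors, per the file headers. The submitters' processing notes name cutadapt, hg19 and GRCh37, with no role; which aligner and counter were used, and the rule for shared reads, is not given in the sources used here. Depth was 11785001 miRNA reads and 27299683 piRNA reads; that of the mRNA library is unknown.

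Strands were taken by name. For stems with at least 2 copies and 10 reads, the share of the leading copy was computed with an exact Clopper-Pearson 95% interval. The reads carry no molecular identifiers and may repeat a molecule, so intervals cover counting error only. With 1 library, no test between conditions was made. A ratio interval is the share interval written as a ratio. Host genes were matched by Ensembl identifier, then symbol. Locations come from matching names and sequences to RefSeq (GRCh38.p14); the authors' coordinates are not used here.

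Named were all strands of stems with 2 copies, the 10 highest, the single-copy strands with at least 100 reads, and their other arms, neighbours and hosts; strands named beyond this were picked with their values in view. The strands, the lists of neighbours, hosts and genes, and the settings were chosen with earlier results of these data known. Python 3.11.15, pandas 2.3.3, SciPy 1.17.1 and matplotlib 3.10.9 were used, and the scripts were tested on simulated data. Other read minimums, limits, denominators and ways to sum neighbours were tried.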

Additional observations from a re-analysis of the deposited data

How the results depend on the processing

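Of 12 alternative values, 1 could not change (below); of the other 11, 10 stayed within 1.5 times the main count. The exception is the share of the strands in the library, which moved from 0.211% to 0.513% when miR-21-5p was left out of the total, by construction. Strands with at least 10 reads numbered 28, with 31 at a minimum of 5 reads and 19 at 50. Stems with a copy at 90% or more numbered 7, also among the 11 stems with at least 50 reads, and 9 at a limit of 75%. With let-7a-3p, miR-181a-3p and miR-181b-3p entered as copies, an alternative chosen after seeing the data, they were 9 of 15. let-7a is among these 9, but let-7a-3p lies in both MIRLET7A1 and MIRLET7A3, so its share is not that of a single copy. Strands under 10% of the other arm numbered 20, with 25 among all listed strands, 14 among those with at least 50 reads and 21 at a limit of 25%. Neighbours followed the leading copy in 5 of 6 stems with both arms or with the higher arm, all but miR-24. With the same arm, chosen after seeing the data, they followed in 4 of the 5 stems with values, all but miR-125b. The miR-125b sum left out let-7a-2-3p of the leading side. The miR-30c ratio of 1.02, between strands that differ by 1 edit, had an interval that includes 1. Listed host genes followed the leading copy in 3 of 5, with miR-30c counted although its copy 2 lies outside its listed host. Requiring a row for both hosts removed no stem, so it tests nothing. No paired analysis was possible because each kind of RNA had 1 library. Depth limits the stems with a copy at 1 to 7 reads.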
